A study of Caenorhabditis elegans with 2 samples.

Results

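Peaks of the C. elegans T-box factor TBX-37 that lie beside 2 or more gene starts were examined: 246 of the 1107 peaks of the conservative peak list, or 22.2%. A peak was taken when its summit had no tRNA, snoRNA, snRNA, rRNA or miRNA gene within 100 bp and at least 2 annotated starts of protein-coding genes within 1000 bp. The other peaks comprised 308 with a single start in that window, 253 with none, and 300 with a small RNA gene within 100 bp. The 246 peaks lay at 241 distinct pairs of starts, and 506 protein-coding genes had a start within 1000 bp of one of their summits. Of the 246, 222 had exactly 2 such starts, 23 more had 3, and 1 had 4.

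The data came from chromatin immunoprecipitation and sequencing of whole early embryos in 1 group of 2 biological replicates. All embryos were of strain RW12282, in which CRISPR had inserted the tag TY1::EGFP::3xFLAG at the endogenous tbx-37 gene on chromosome III, and were collected at 0 hours by egg bleaching. The tagged protein was precipitated with an antibody against GFP. No second strain, stage or treatment was part of the comparison, and the pools are whole organisms, so the cells that carried TBX-37 at a given site cannot be told apart from the rest.

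TBX-37 and its close relative TBX-38 are T-box transcription factors needed in descendants of the ABa blastomere, which make the anterior pharynx among other tissues. In the compact nematode genome, neighbouring genes often start back to back and point away from one another, so that a single intergenic stretch holds the promoters of both. Other close genes lie one behind the other on the same strand, and many of these form operons that are transcribed from a promoter upstream of the first gene and separated by trans-splicing. Here a pair is head-to-head when a minus-strand start lies at the lower coordinate and a plus-strand start at the higher one, same-strand when both genes run the same way, and facing when the plus-strand start comes first, so that each gene runs toward the start of the other. Where a window held more than 2 starts, those closest to the summit made the pair.

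The sequences around 9 of the summits are shown, taken at strong peaks of both main arrangements by the rule given with the processing. Some of the letters described further on were chosen after these windows had been seen. They are the plus strand of ce11 (WBcel235), read 5′ to 3′ from the RefSeq copy of that assembly. Capitals mark letters on either strand: the repeat GAGAGA, the GC box GGGCGG, the words CTAGGCC and GGCCACG, the word ACTCCTC and the word GGTTCAA. Of the 9, the first 6 are head-to-head and the last 3 same-strand. Their windows are chrIII:8307517-8307617 for F10E9.7/F10E9.5, chrV:7230945-7231145 for gei-6/krr-1, chrIII:12351426-12351626 for pph-4.1/Y75B8A.31, chrIV:10483815-10484015 for F01D4.5/ced-5, chrV:2638613-2638813 for W02H5.16/W02H5.19, and chrII:10872642-10872842 for cyn-4/copz-1. The same-strand windows are chrX:6207760-6207960 for T13C5.6/C14F11.7, chrIII:7198947-7199147 for exos-9/pfd-5, and chrIII:8319231-8319381 for sas-4/F10E9.11. In the F10E9.7/F10E9.5 window the plus-strand start of F10E9.5 is base 76, and in the sas-4/F10E9.11 window the minus-strand start of F10E9.11 is base 30. All lie in annotated intergenic sequence apart from up to 30 bases of untranslated region in these windows.
F10E9.7/F10E9.5: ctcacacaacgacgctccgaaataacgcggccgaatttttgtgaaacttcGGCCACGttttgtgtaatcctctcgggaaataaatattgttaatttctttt
gei-6/krr-1: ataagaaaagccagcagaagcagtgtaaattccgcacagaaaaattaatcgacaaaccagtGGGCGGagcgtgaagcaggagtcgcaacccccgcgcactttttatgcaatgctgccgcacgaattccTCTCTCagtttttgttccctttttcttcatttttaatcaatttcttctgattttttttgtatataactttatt
pph-4.1/Y75B8A.31: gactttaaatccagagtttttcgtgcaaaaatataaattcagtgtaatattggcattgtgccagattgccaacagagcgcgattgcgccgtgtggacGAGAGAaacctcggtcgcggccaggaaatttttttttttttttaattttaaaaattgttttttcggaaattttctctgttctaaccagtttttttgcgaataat
F01D4.5/ced-5: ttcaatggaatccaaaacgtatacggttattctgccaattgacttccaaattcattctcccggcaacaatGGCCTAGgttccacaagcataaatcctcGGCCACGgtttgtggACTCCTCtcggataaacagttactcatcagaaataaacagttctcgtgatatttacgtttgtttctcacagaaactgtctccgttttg
W02H5.16/W02H5.19: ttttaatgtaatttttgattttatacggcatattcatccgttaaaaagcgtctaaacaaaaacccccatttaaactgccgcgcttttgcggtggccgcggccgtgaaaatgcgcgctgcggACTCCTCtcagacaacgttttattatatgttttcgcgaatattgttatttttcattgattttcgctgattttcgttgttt
cyn-4/copz-1: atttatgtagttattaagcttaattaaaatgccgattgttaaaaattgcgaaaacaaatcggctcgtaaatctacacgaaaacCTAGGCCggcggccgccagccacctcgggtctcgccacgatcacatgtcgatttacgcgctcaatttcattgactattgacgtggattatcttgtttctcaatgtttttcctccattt
T13C5.6/C14F11.7: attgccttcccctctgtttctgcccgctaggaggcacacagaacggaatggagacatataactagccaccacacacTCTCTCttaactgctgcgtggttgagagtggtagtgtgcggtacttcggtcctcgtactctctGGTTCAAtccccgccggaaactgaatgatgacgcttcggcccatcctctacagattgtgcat
exos-9/pfd-5: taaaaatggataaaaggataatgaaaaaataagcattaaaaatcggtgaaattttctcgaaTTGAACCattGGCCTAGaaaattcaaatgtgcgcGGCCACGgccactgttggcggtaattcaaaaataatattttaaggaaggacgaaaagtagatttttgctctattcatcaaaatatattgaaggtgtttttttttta
sas-4/F10E9.11: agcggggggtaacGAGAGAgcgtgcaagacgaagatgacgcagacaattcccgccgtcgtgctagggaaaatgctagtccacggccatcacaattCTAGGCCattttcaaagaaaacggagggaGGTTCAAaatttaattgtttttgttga

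The arrangement of the starts was uneven. Head-to-head pairs made up 211 of the 246 peaks (85.8%, exact 95% binomial interval 80.8 to 89.9), same-strand pairs 28 (11.4%, 7.70 to 16.03) and facing pairs 7 (2.85%, 1.15 to 5.77). These intervals cover counting error over peaks only, since the lists hold no read counts, the depth of each replicate is unknown, and neighbouring peaks are not independent. The starts of a head-to-head pair were a median of 453 bp apart (12 to 1482), those of a same-strand pair 659 bp (6 to 1297) and those of a facing pair 567 bp (6 to 1611).

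Because close starts are themselves arranged unevenly, every consecutive pair of protein-coding starts up to 2000 bp apart in the genome served as background. There were 5600 such pairs, of which 265 (4.73%) had a summit within 1000 bp of both starts. By arrangement, 211 of 2560 head-to-head pairs held a summit (8.24%, 7.21 to 9.38), against 47 of 2650 same-strand pairs (1.77%, 1.31 to 2.35) and 7 of 390 facing pairs (1.79%, 0.725 to 3.66). A summit can count for more than one consecutive pair, and a pair can hold more than one summit, so these totals differ in kind from the number of peaks in each class. The head-to-head pairs of the genome are also closer together, with a median spacing of 678 bp, than the same-strand pairs with 1445 bp, and starts far apart leave little room within 1000 bp of both.

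When spacing was held alike, the shares of pairs with any summit in reach lay nearer to one another. Some same-strand pairs were counted only through a summit whose own closest pair had another arrangement. Among starts up to 250 bp apart, 10.99% of head-to-head pairs (8.004 to 14.6) and 8.11% of same-strand pairs (3.77 to 14.8) held a summit. From there to 500 bp the shares were 14.5% (11.7 to 17.8) for head-to-head and 9.80% (3.26 to 21.4) for same-strand pairs, and between 500 and 1000 bp they were 9.42% (7.52 to 11.6) and 6.53% (4.42 to 9.25), in the same order. The intervals of the 2 arrangements overlap in each of these 3 bins, while the point values were higher for head-to-head pairs. Over all pairs up to 1000 bp apart, 198 of 1745 head-to-head pairs (11.3%, 9.90 to 12.9) and 43 of 606 same-strand pairs (7.10%, 5.18 to 9.44) held one. Over the same spacing, 199 peaks had a head-to-head pair as their own closest starts, and 25 had a same-strand pair. The same-strand shares therefore partly reflect peaks of other arrangements, and shares without those peaks were not computed. Beyond 1000 bp the shares were 1.60% for head-to-head and 0.196% for same-strand pairs. For comparison, 200 of the 10526 starts with no other start within 2000 bp had a summit within 1000 bp (1.90%, 1.65 to 2.18). Whether gene content or chromosome sets the gap between close pairs and lone starts was not tested.

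**Figure D1:**
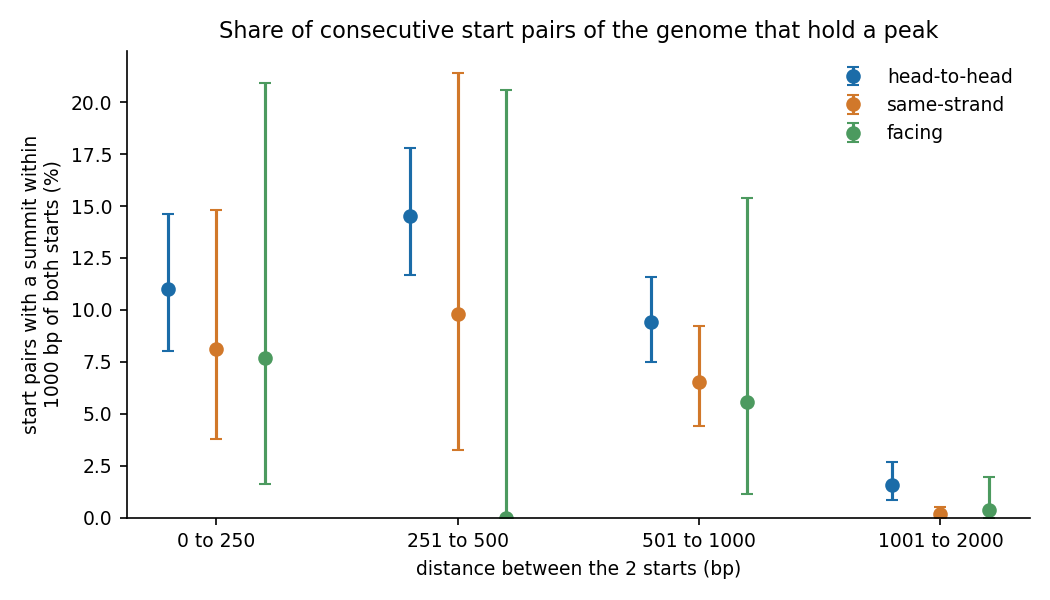
Share of consecutive protein-coding start pairs with a summit within 1000 bp of both starts (%, y axis), by the distance between the starts in bp (x axis) and by arrangement. Points are shares and bars exact 95% binomial intervals. The intervals of head-to-head and same-strand pairs overlap in the 3 bins up to 1000 bp, and both shares are below 2% beyond it. Same-strand pairs also count summits whose own closest pair has another arrangement.

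The summits of head-to-head peaks sat in the space that the promoters share. In 191 of 211 (90.5%, 85.7 to 94.1) the summit was at or between the starts, against 6 of 28 same-strand peaks (21.4%, 8.30 to 41.0) and 1 of 7 facing peaks. The median head-to-head summit lay 99 bp from the midpoint of its pair, 127 bp from the nearer start and 337 bp from the farther one. The nearer start was the plus-strand one in 105 and the minus-strand one in 106. In 88 of the 211 the nearer start was within 100 bp. With starts up to 250 bp apart, 26 of 40 summits (65.0%) were between them, and with starts farther apart but within 500 bp 75 of 79 (94.9%). The 20 head-to-head summits outside their pair had closer starts (median spacing 176 bp, against 487 bp for those between) and lay a median of 19.5 bp from the nearer start. They were in 5′ untranslated regions in 15 instances, in coding exons in 3 and in introns in 2, on the plus-strand gene's side in 9 and on the minus-strand gene's side in 11. A between-the-starts position is partly set by the geometry, because a summit close to both of 2 spaced starts has little other room.

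**Figure D2:**
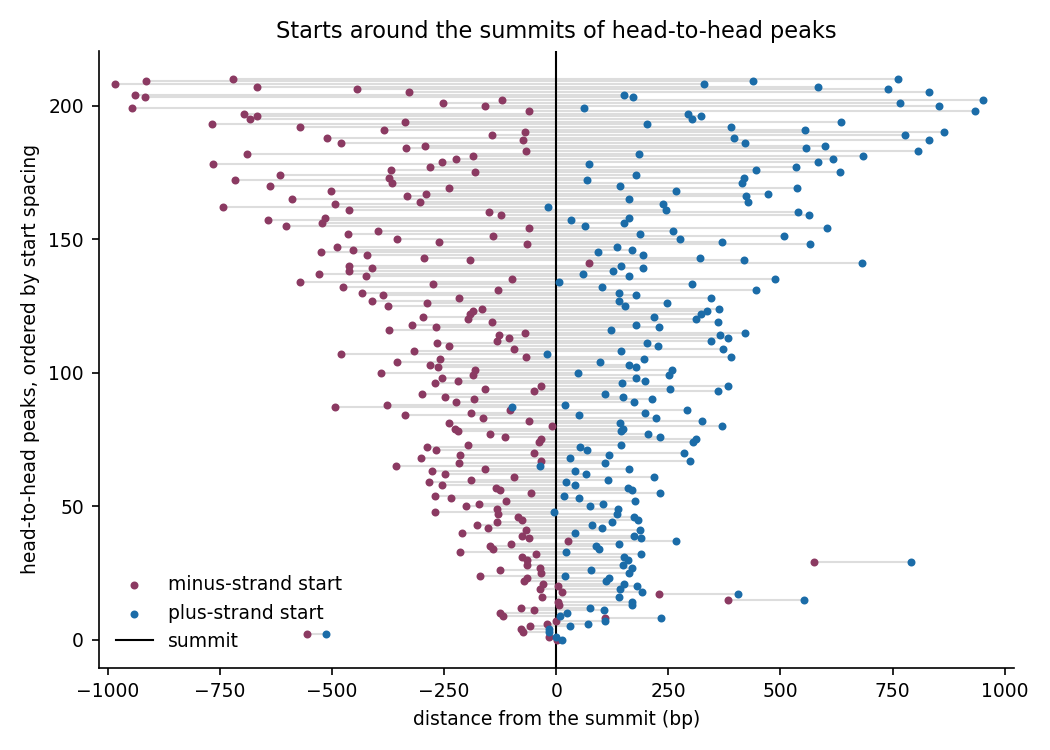
Positions of the minus-strand and plus-strand starts relative to the summit (bp, x axis) for the 211 head-to-head peaks, ordered by start spacing from bottom to top (y axis). Each line joins the starts of 1 pair, and in 191 of 211 the line crosses the summit.

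Signal values are those written by the authors' peak caller, and are compared only within a list. The strongest head-to-head peak, at chrIII:10461242-10461400, lay between ecps-1 and atx-2, which encodes the ataxin-2 RNA-binding protein. The signal value there was 363 in the conservative list, 131 in the candidate list of replicate 1 and 239.7 in that of replicate 2. A peak at chrIII:7520770-7520930, beside cux-7, C07H6.2 and the DNA ligase gene lig-4, had 359.7 in the conservative list, 155 in replicate 1 and 216 in replicate 2. Between nrde-2, a nuclear RNA interference factor, and atad-3, a mitochondrial membrane ATPase, the signal at chrII:10248445-10248623 was 348, with 132 in replicate 1 and 219 in replicate 2. All 3 were called in the own lists of both replicates.

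The next head-to-head pairs reached from 342 to 281 in the conservative list. They were ears-2/uncp-18 with 342, mlcd-1/idhg-1 with 302, prp-19/K10D2.5 with 293, F10E9.7/F10E9.5 with 289 and spd-5/npp-6 with 281. The product of ears-2 charges a mitochondrial tRNA with glutamate, mlcd-1 and idhg-1 encode enzymes of mitochondrial metabolism, prp-19 a core splicing factor, spd-5 the scaffold of the centrosome, and npp-6 a subunit of the nuclear pore. The ears-2/uncp-18 starts were 92 bp apart, with the summit between them and 20 bp from the start of ears-2 at chrIV:390409-390547. Its signal was 120.1 in replicate 1 and 218 in replicate 2. The spd-5/npp-6 summit at chrI:5176329-5176484 instead lay in an intron outside the pair, on the spd-5 side. It was 230 bp from the start of spd-5 and 405 bp from that of npp-6, with 110.0 in replicate 1 and 175 in replicate 2. The last 4 of the 12 strongest were E04F6.6/pcrg-1 with 275, F56G4.6/wbp-4 with 255, rpl-15/K11H12.8 with 252 and spe-48/Y51F10.11 with 247. All 12 were in the own lists of both replicates and had the highest IDR score of 1000.

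Same-strand peaks mostly sat ahead of the first gene. In 22 of 28 the summit was upstream of both genes and in 6 it was between the starts. At 8 of the 28 peaks the genes of the pair overlapped, with fce-2/F48F5.8 counted once for each of its peaks. At the other 20 the gap from the end of the first gene to the start of the next was at most 500 bp, with a median of 111 bp. Operon annotation was not used here. The strongest of all 246 peaks belonged to this class: at chrX:6207710-6207958, between the starts of T13C5.6 and C14F11.7, the signal was 385 in the conservative list, 142 in replicate 1 and 229.9 in replicate 2. The printed window of this peak holds GGTTCAA at base 140. These are letters of the inner promoter of tRNA genes (the B box), and the nearest annotated small RNA gene is 12210 bp away.

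Upstream of pfd-5, a prefoldin subunit that helps fold cytoskeletal proteins, and exos-9, a subunit of the RNA exosome, the peak at chrIII:7198974-7199118 had a signal of 309.9, with 112 in replicate 1 and 198 in replicate 2. Ahead of F10E9.11 and sas-4, a centriole assembly gene, the peak at chrIII:8319240-8319354 had 239, with 96.2 in replicate 1 and 143 in replicate 2. Both were called in each replicate's own list. The following same-strand pairs were much weaker, with 149 for rps-28/Y41D4B.4, 135 for mdt-8/Y62F5A.12, 134 for R05H5.4/arv-1, 132 for fce-2/F48F5.8 and 127 for rab-7/W03C9.5. The rps-28 gene encodes a ribosomal protein, mdt-8 a Mediator subunit and rab-7 a GTPase of late endosomes. The peak with 4 starts was also of this class, near Y62E10A.23, mdt-9, lsm-3 and Y62E10A.20, with a signal of 118.

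Among facing pairs the strongest peak was at mrps-35 and sws-1 with 228 (replicate 1 had 70.5 and replicate 2 had 158). It was followed by hsp-90 and C47E8.4 with 163, knl-3 and T10B5.3 with 109.6, and B0464.9 and B0464.6 with 109. The mrps-35 gene encodes a mitochondrial ribosomal protein, hsp-90 an abundant chaperone and knl-3 a kinetochore protein. A facing pair of histone genes that both carry the symbol his-9 in the annotation had a signal of 79.0 and the widest spacing, 1611 bp.

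The signal did not separate the arrangements. Its median was 111 for head-to-head, 112 for same-strand and 109 for facing peaks, and the mean log2 difference, head-to-head minus same-strand, was -0.01 ± 0.13 (SE over 211 and 28 peaks, 95% interval -0.26 to 0.24). In the candidate lists of the replicates the same difference was 0.03 ± 0.13 in replicate 1 and 0.04 ± 0.13 in replicate 2. A difference of up to 0.26 lower or 0.24 higher is within the first interval. Over the 211 head-to-head peaks, which share their libraries, spacing and signal correlated with rho = -0.04 (Spearman) and r = -0.01 (Pearson), also a description.

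Set against peaks without a start, the 246 peaks were stronger, and the difference from single-start peaks was small and depended on the list, window and lowest values included. Their median signal was 111, against 96.1 for peaks with a single start (mean log2 difference 0.20 ± 0.07, 0.06 to 0.33) and 81.8 for peaks with none (0.39 ± 0.07, 0.25 to 0.53). In the candidate list of replicate 1 the difference from single-start peaks was 0.07 ± 0.05 (-0.03 to 0.16), and in that of replicate 2 it was 0.13 ± 0.05 (0.03 to 0.24). It was 0.11 (-0.03 to 0.25) in the other series-wide list, 0.07 (-0.07 to 0.20) among peaks of the highest score, 0.06 (-0.08 to 0.21) with a window of 500 bp, 0.06 (-0.07 to 0.19) without the small RNA limit, and 0.06 to 0.08 in the replicates' own lists. Signal values under 20 were found in 2 of the 246 peaks and 10 of the 308 single-start peaks, and without them the difference was 0.11 ± 0.05 (0.01 to 0.21), a limit chosen after the data had been seen. Candidates of both replicates, 242 with a value in each, correlated on the log2 scale with rho = 0.63 (Spearman) and r = 0.74 (Pearson), given as a description. Peaks with 3 or more starts differed from those with 2 by -0.09 ± 0.26 (log2, 24 and 222 peaks) in the conservative list, by 0.11 ± 0.16 without values under 20, by 0.15 ± 0.17 in replicate 1 and by 0.08 ± 0.15 in replicate 2, so no direction is given. Base composition differed slightly from that of single-start peaks: the windows around the summits were 40.7% ± 6.45 G or C (SD over 246 peaks), against 43.4% ± 6.84 for 308 single-start peaks. Within the 246 it was 40.7% with 2 starts and 40.98% with 3 or more. Over the 246 peaks, the share of G and C correlated with the signal with rho = 0.02 (Spearman) and r = 0.07 (Pearson), also a description. The part of base composition in the difference from single-start peaks was not tested.

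**Figure D3:**
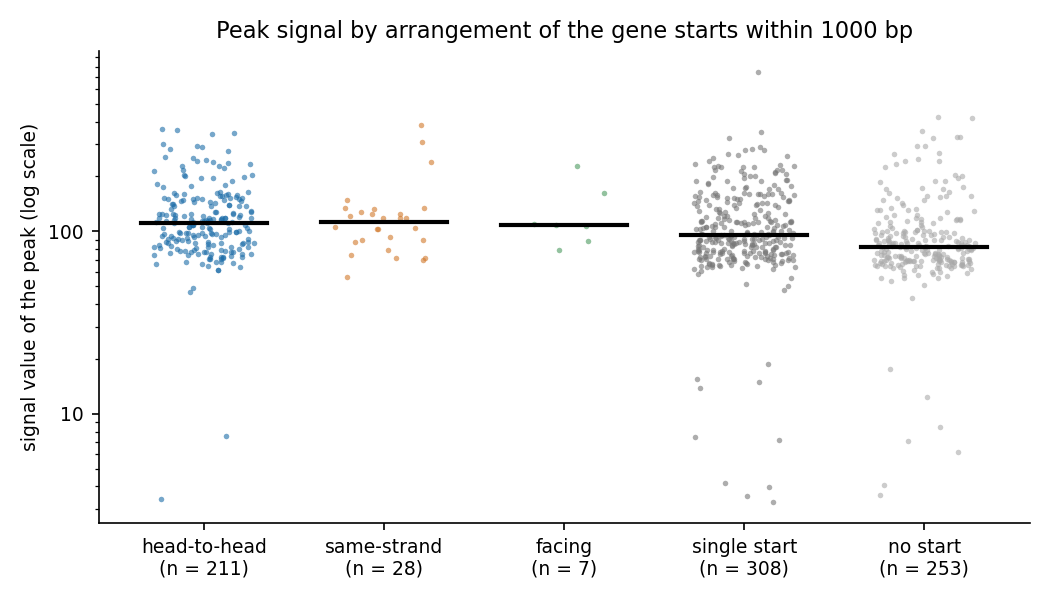
Signal value of each peak in the conservative list (log scale, y axis) by the arrangement of protein-coding starts within 1000 bp (x axis), for peaks away from small RNA genes. Points are peaks and black lines medians. Head-to-head, same-strand and facing medians lie between 109 and 112, the single-start median at 96.1 and that without a start at 81.8.

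Both replicates' own lists held 96 of the 246 peaks (39.02%, 32.9 to 45.4), against 40.9% of all conservative peaks and 99 of 308 single-start peaks (32.1%, 26.96 to 37.7). The share was 40.3% (33.6 to 47.2) for head-to-head and 32.1% (15.9 to 52.4) for same-strand peaks. The own list of replicate 1 held 111 of them and that of replicate 2 held 166, and 65 were in neither. The ranked candidates held nearly all, 243 in replicate 1 and 245 in replicate 2.

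**Figure D4:**
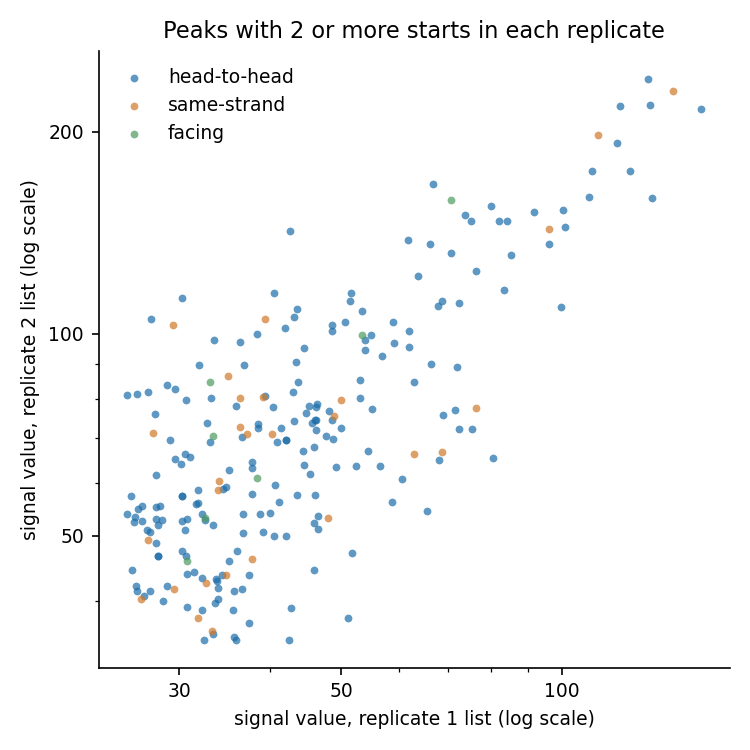
Signal value in the candidate list of replicate 1 (x axis, log scale) and of replicate 2 (y axis, log scale) for the 242 peaks with 2 or more starts that have a value in both, coloured by arrangement. The replicate lists have scales of their own, with medians of 40.2 in replicate 1 and 69.5 in replicate 2.

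A few pairs held a pair of peaks each. The 5 such pairs were ecps-1/atx-2, fce-2/F48F5.8, dnj-29/ndua-2, ragc-1/Y24F12A.1 and sup-35/Y48A6C.4, and the 3 weakest of the 246 peaks were second peaks there. The weakest, at dnj-29/ndua-2, had a signal of 3.42 in the conservative list beside a neighbour with 118. That at ragc-1/Y24F12A.1 had 7.58 beside a neighbour with 84.3, and at sup-35/Y48A6C.4 the second peak had 46.7 beside 61.8. In these 3 pairs both peaks overlapped one and the same candidate in each replicate (42.01 in replicate 1 and 69.5 in replicate 2 at dnj-29/ndua-2, 30.3 and 57.3 at ragc-1/Y24F12A.1, 28.1 and 46.6 at sup-35/Y48A6C.4, in the same order), so the replicate lists give no value of the second peak alone.

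Genes of core cellular functions, counted in 16 lists, stood beside these peaks at a higher share than genes of other lists. Of 1174 core-list genes, 122 had a start within 1000 bp of a summit (10.4%, 8.70 to 12.3), against 14 of 2967 genes in 11 lists of cell-type-specific, environmental and regulatory families (0.472%, 0.258 to 0.790) and 2.53% of all protein-coding genes. The same order was seen at single-start peaks, so it is not particular to the 246. Those peaks lay beside 57 of the 1174 core-list genes, 7 of the 2967 others and 293 of all 19973 protein-coding genes. These lists were chosen with earlier results known and are descriptions. Cytoplasmic ribosomal proteins had the highest share, 18 of 82 (22.0%, 13.6 to 32.5). Next came translation factors with 7 of 44 (15.9%), histones with 13 of 83 (15.7%), chaperones, prefoldins and cyclophilins with 13 of 89 (14.6%), and RNA polymerase, Mediator and general transcription genes with 10 of 71 (14.1%). The ubiquitin system was near the background with 2 of 71 (2.82%, 0.343 to 9.81).

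The gap between lists was also present within head-to-head pairs. Core genes are more often in head-to-head pairs, 538 of 1174, against 662 of 2967 genes of the other lists. Among genes in head-to-head pairs alone, 17.8% of core genes had such a peak, against 2.11% of genes in the other lists and 8.34% of all genes. Seen by pair, 79 of the 211 consecutive head-to-head pairs with a summit held a core gene (37.4%, 30.9 to 44.3), against 374 of 2349 without one (15.9%, 14.5 to 17.5). Both genes were from core lists in 7.11% of pairs with a summit and 2.98% of those without. A gene of the other lists was in 6.64% of pairs with a summit (3.67 to 10.9) and 21.4% without (19.7 to 23.1). The pairs with a summit also had closer starts, at a median of 452 bp, against 708 bp without, and the part of spacing in these shares was not tested.

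**Figure D5:**
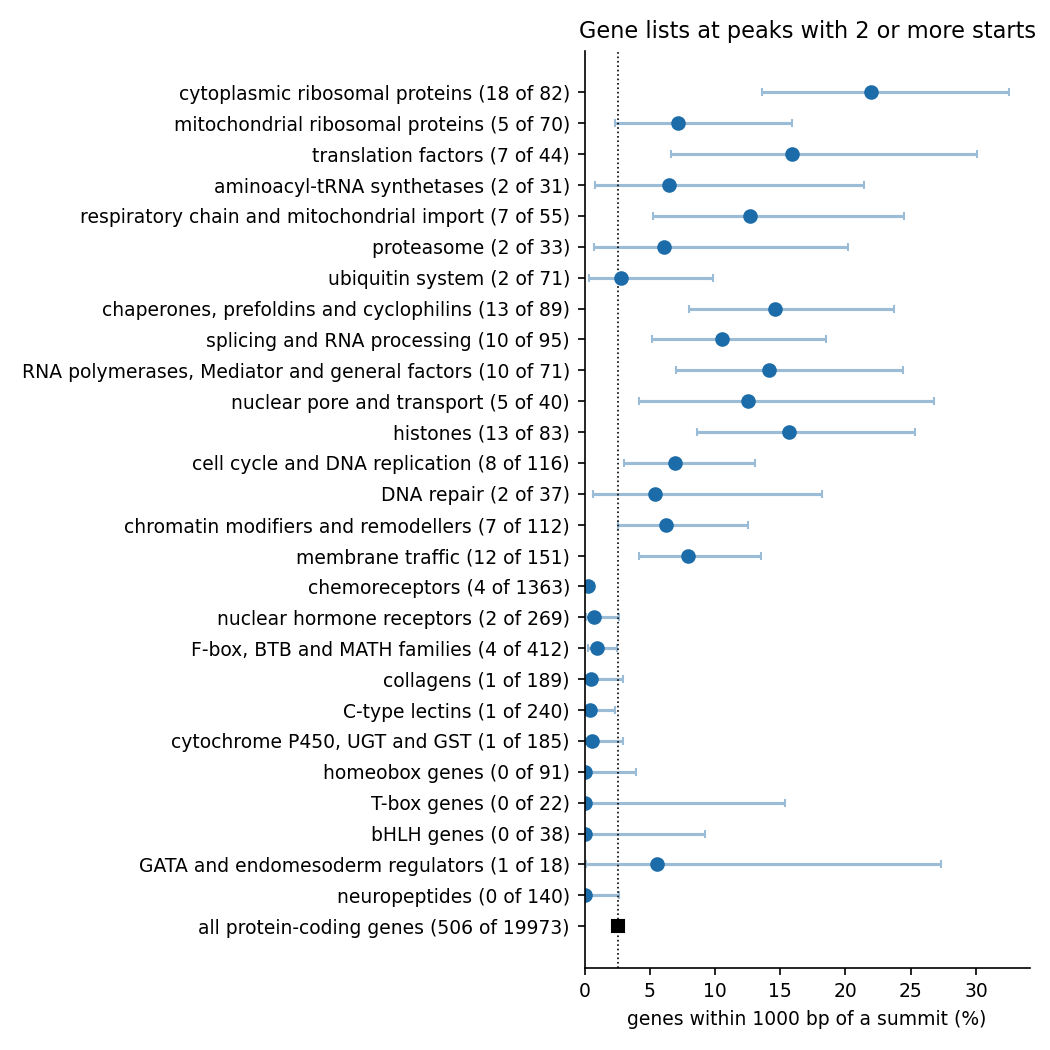
Share of the genes of each list with a start within 1000 bp of a summit of the 246 peaks (%, x axis), with exact 95% binomial intervals. The dotted line and the square mark all protein-coding genes (2.53%), with the 16 core lists at the top and the 11 other lists below them.

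In the machinery of protein synthesis, the strongest peak of the ribosomal list was at rpl-15 and K11H12.8, with 252 in the conservative list, 101.2 in replicate 1 and 143.8 in replicate 2, and the next at rps-23 and dpm-3 with 201.2, 83.4 in replicate 1 and 116 in replicate 2. For mitochondrial translation, tufm-2 (an elongation factor) and exoc-7 had 222, mrpl-18 and C14B9.8 had 159, and gfm-1 (also an elongation factor) and rict-1 had 144. The synthetase mars-1 had 86.4 with F58B3.6. In the respiratory chain list, the peak at atp-5, a subunit of the ATP synthase, had 164 and that at nuo-2, a subunit of complex I, had 103.

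In the group for protein folding and turnover, cyn-4, a cyclophilin, shared a peak of 204 with copz-1, a subunit of the coatomer of Golgi vesicles. The proteasome genes pas-1 and rpn-7 had 119 and 97.7, and the ubiquitin-system genes uba-5 and ubc-6 had 119 and 98.1. Also in the membrane traffic list, snx-13, a sorting nexin, shared a peak of 152 with snr-1, a core spliceosomal Sm protein. In nuclear transport, ima-1 (an importin alpha) and dvc-1 had 159.

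Genes of transcription and chromatin followed the same range. The peak at cdk-9, the kinase that releases paused RNA polymerase, and hxk-2 had 174 in the conservative list, 67.7 in replicate 1 and 110.1 in replicate 2. The deacetylase gene hda-11 had 153 and the chromodomain gene mrg-1 had 147. The cohesin gene smc-3 and the ubiquitin ligase gene mib-1 had 203, with 76.4 in replicate 1 and 124 in replicate 2, and the repair nuclease gene mre-11 had 82.1. Histone pairs had low to middling values: 127 at his-6/his-5 (33.5 in replicate 1 and 97.7 in replicate 2) and 100.3 at his-63/his-64 (33.2 in replicate 1 and 80.2 in replicate 2). Histone genes occur in near-identical copies, so reads may have been shared between them and these values are uncertain.

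Among the 11 other lists, 4 had no gene at these peaks: homeobox genes (0 of 91), T-box genes (0 of 22), bHLH genes (0 of 38) and neuropeptides (0 of 140), where counts of 0 leave upper limits of 3.97, 15.4, 9.25 and 2.60%, in that order. The single gene of the list of GATA factors and early embryonic regulators was mex-1, a maternal RNA-binding protein gene, 929 bp from the summit of the rab-7/W03C9.5 peak. Neither tbx-37 nor tbx-38 was a member: the nearest of the 246 summits were 63628 bp from tbx-37 (the mib-1/smc-3 peak) and 432732 bp from tbx-38. The microRNA gene lsy-6, a known target of these factors, was 68097 bp from the nearest.

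The sequence around the summits held the T-box letters no more often than empty head-to-head promoters, and the GC box more often. Letters were searched on both strands within 100 bp of each summit, and also around the midpoints of 2292 head-to-head pairs with no conservative summit within 1000 bp of either start. The T-box core GGTGTG was in 12 of 246 windows (4.88%, 2.55 to 8.37), against 7.14% of all conservative peaks and 5.72% (4.80 to 6.75) of the empty midpoints, and the longer AGGTGTGA was in 0 of 246 (upper limit 1.49%), against 0.262%. The GC box GGGCGG was in 41 windows (16.7%, 12.2 to 21.9), against 10.1% (6.94 to 13.98) of single-start peaks, 12.1% of all conservative peaks and 4.67% (3.84 to 5.61) of the empty midpoints. GAGAGA was in 57 windows (23.2%, 18.05 to 28.95), against 22.7% of single-start peaks, 25.7% of all conservative peaks and 12.2% (10.9 to 13.6) of the empty midpoints. At matched places, the midpoints of the 211 head-to-head peaks' pairs, GGTGTG was in 5.69% (2.97 to 9.72), GGGCGG in 11.4% (7.43 to 16.5) and GAGAGA in 16.6% (11.8 to 22.3), so the interval of GGGCGG lay above that of the empty midpoints while those of GGTGTG and GAGAGA overlapped it. TATAAA was in 17.1% (12.6 to 22.4), near the 14.7% of all conservative peaks, against 27.2% (25.4 to 29.1) of the empty midpoints. GATAAG was in 2.85%, against 4.88% of all conservative peaks and 9.03% (7.89 to 10.3) of the empty midpoints. At the matched midpoints TATAAA was in 21.3% (16.002 to 27.5) and GATAAG in 5.69% (2.97 to 9.72), and both intervals overlap those of the empty midpoints. GGTTCGA, the other spelling of the tRNA B box, was in 0.813% of these windows, against 16.1% of all conservative peaks.

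Some 7-letter stretches recurred in the printed windows and were then counted in all, so their choice followed the data. CTAGGCC was in 48 of 246 windows (19.5%, 14.8 to 25.02), against 14.6% (10.9 to 19.1) of single-start peaks, 10.03% of all conservative peaks and 1.13% (0.742 to 1.66) of the empty midpoints. GGCCACG was in 15.4% (11.2 to 20.6), against 8.22% of all conservative peaks and 0.698% (0.400 to 1.13) of the empty midpoints, and ACTCCTC in 14.2% (10.1 to 19.2), against 7.59% of all conservative peaks and 1.75% (1.25 to 2.37) of the empty midpoints. At the matched midpoints CTAGGCC was in 13.3% (9.002 to 18.6), GGCCACG in 8.06% and ACTCCTC in 10.9%. CTAGGCC and GGCCACG can overlap in GGCC. At least one of the 3 was in 79 of the 246 windows (32.1%, 26.3 to 38.3), against 26.6% of single-start peaks, 10.3% of peaks without a start, 7.67% of those at small RNA genes and 3.45% (2.74 to 4.28) of the empty midpoints. The other word chosen in this way was not more frequent than in empty midpoints. GGTTCAA was in 2.44% of the 246 windows (0.900 to 5.23), against 2.57% (1.97 to 3.31) of the empty midpoints and 7.50% of all conservative peaks. By arrangement, it was in 4 of 28 same-strand and 2 of 211 head-to-head windows. The 4 include all 3 printed same-strand windows, in which the word had been seen before it was counted. The difference between the arrangements is therefore partly set by that choice.

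The first 3 words lay close to the summits. CTAGGCC was within 50 bp of the summit in 44 of the 48 windows that held it (91.7%), at a median of 14.5 bp, GGCCACG in 34 of 38 at a median of 10 bp, and ACTCCTC in 33 of 35 at 23 bp. Other letters varied: GGGCGG was within 50 bp in 34 of 41 (82.9%), GAGAGA in 36 of 57 (63.2%) and TATAAA in 18 of 42 (42.9%). TTTCAG, letters of the splice acceptor, had the lowest share, 17 of 56 (30.4%). The 3 words had been picked from windows centred on summits. In the printed windows F01D4.5/ced-5 holds all 3 words, exos-9/pfd-5 holds CTAGGCC and GGCCACG, and gei-6/krr-1 and pph-4.1/Y75B8A.31 hold none of them. By arrangement, CTAGGCC was in 39 of 211 head-to-head (18.5%) and 6 of 28 same-strand windows (21.4%). ACTCCTC was in 34 of 211 head-to-head (16.1%, 11.4 to 21.8) and 0 of 28 same-strand windows (upper limit 12.3%). The intervals of ACTCCTC overlap, and among the printed windows that word had been seen only in head-to-head ones. The median signal was 128 for windows with at least one of the words and 103 for those without. The words had been picked from windows of strong peaks, so this difference is partly set by that choice. Among single-start peaks, none of which had been printed, the medians were 131 with a word and 88.2 without. The windows around the summits were richer in G and C (40.7% ± 6.45, SD over 246) than the empty midpoints, which had 33.9% ± 6.54 (SD over 2292). At the matched midpoints the value was 35.5% ± 6.73 (SD over 211). The part of base composition in the shares of the words was not tested. Which factor, if any, reads these words was not tested.

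Chromosomes differed in how many head-to-head pairs held a summit. The share was 12.99% (9.80 to 16.8) on III, 11.9% (9.002 to 15.4) on I, 7.95% on IV, 7.51% on II, 5.43% (3.83 to 7.44) on V and 2.25% (0.616 to 5.65) on X. The X chromosome had 225 of the 1107 conservative peaks and 6 of the 246, with a median signal of 82.2, below the medians of 107 to 122 on the autosomes. The order of II and IV is within their intervals.

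The limits of 1000 bp and 100 bp pass through a continuous range. Just inside the first were K07C5.13/K07C5.3, with the second start 997 bp away and a signal of 89.7, C50B6.3/nasp-2 at 984 bp with 151, and knl-3/T10B5.3 at 982 bp with 109.6. Just outside were icd-2/psf-3 at 1002 bp with 108, mys-1/VC5.2 at 1006 bp with 140.1, and spe-36/F40F11.3 at 1013 bp with 155. For the distance to a small RNA gene, tmem-107/rps-26 at 128 bp (signal 157) and let-70/klc-1 at 174 bp (67.7) were kept, and nlp-4/F59C6.18 at 94 bp (195) and pqn-71/rocf-1 at 63 bp (14.1) were not.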

How the data were processed

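Chromatin immunoprecipitation peak lists were taken as deposited, for 2 replicates of 1 group. Per the labels the build is ce11. Aligner and caller are not given in the sources used. The signal value is the score that the authors' peak caller wrote, compared within a list. The peak score of the deposited lists is the authors' IDR (irreproducible discovery rate) on a scale with a maximum of 1000, and the −log10 of the IDR was read from the deposited ranked lists. The authors derived the conservative list by comparing the replicates, and deposited an own list for each. A set of 8 further per-sample columns could not be tied to a replicate and was not used. Depth is unknown.

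Starts came from Ensembl release 115 (19973 protein-coding genes) and sequence from RefSeq's WBcel235. Of 24287 annotated start codons, 99.9% read ATG there. A candidate of a replicate was matched to a peak by overlap of at least 1 bp, taking the nearest summit, so that 6 of the 246 peaks share a candidate with a neighbour. Shares have exact (Clopper-Pearson) 95% intervals, and mean log2 differences have standard errors over peaks. No p-values were computed, because peaks are not replicates. Python 3.11.15 with numpy 2.4.6, pandas 2.3.3, scipy 1.17.1 and matplotlib 3.10.9 was used, tested on simulated data.

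The members and lists were chosen with earlier results of these data known. Named were the 12 strongest head-to-head, 8 same-strand and 4 facing peaks, the 3 weakest, up to 2 genes for each of 27 lists, neighbours of the limits, tbx-37, tbx-38 and lsy-6. Genes were assigned to lists by symbol patterns, and 4 words were added after sequences had been seen. Sequences shown were the strongest with starts up to 500 bp apart (6 head-to-head) and the 3 strongest same-strand ones, without chromosome I or windows over 30 untranslated bases. Alternatives were the other series-wide list, each replicate's own list, the highest score, windows of 500 and 2000 bp, transcript starts, peak midpoints, small RNA limits, other pair rules, other overlaps and, added after the data had been seen, signal values of at least 20.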

Additional observations from a re-analysis of the deposited data

How the results depend on the processing

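Under 15 alternatives, 86 of 106 values stayed within 1.5 times the count or within the interval of the reported value. The signal difference between head-to-head and same-strand peaks stayed within its interval throughout, though its sign varied around 0. With each replicate's own list in place of the list from both, the count ranged from 113 to 181, the head-to-head share from 83.98 to 88.5%, the share of head-to-head pairs with a summit from 3.91 to 5.94% and that of same-strand pairs from 0.830 to 1.43%, since those lists are shorter, the signal difference between head-to-head and same-strand peaks from -0.21 to 0.09, that from single-start peaks from 0.06 to 0.08 (log2), and the share of summits between the starts from 91.0 to 94.1%. The lower bounds come from leaving out replicate 2 for the counts and pair shares. Keeping peaks with the highest score gave 7.03% of head-to-head pairs, and 45.9% of peaks in both own lists. A 500 bp window gave 162 peaks with a head-to-head share of 95.1%, and a 2000 bp window 71.1% with 2.82% of same-strand pairs. Without the small RNA limit the difference from single-start peaks was 0.06. Taking the closest start on each side gave 95.6% head-to-head and 100% of summits between the starts, which that rule itself sets. Requiring 50% reciprocal overlap put 29.7% in both own lists. The difference from single-start peaks had an interval that includes 0 in several settings, given beside that result. Other causes were not tested. No paired analysis was possible because there is 1 group only. No read depth is known, 2 replicates give no spread for a share, and 28 same-strand and 7 facing peaks leave wide intervals.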

Other observations

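Of the 14 peaks that hold a gene of the cell-type-specific, environmental and regulatory lists, 4 also had a gene of a core list beside it: dnj-19 opposite nhr-47 (signal 138, with 27.5 in replicate 1 and 105 in replicate 2), uba-5 opposite clec-53 (119, with 41.3 and 72.3 in the same order), prp-8, a core splicing factor, opposite bath-42 (100.4), and rab-7 near mex-1 (127). Symbol patterns left some partners of general function out of the core lists, among them rsr-1, a splicing factor gene, opposite sri-5 (149.8), and erfa-3, a translation release factor gene, opposite math-33 (124.0). These 2 were picked after their values had been seen. Among all 246 peaks, 104 had a gene of a core list beside them. The 4 of 14 is therefore not a higher share than among all the peaks. The strongest chemoreceptor gene peak, sre-1 with B0495.9, had 189.9, with its starts 994 bp apart and the summit 934 bp from the start of sre-1.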
